A study of Mus musculus with 13 samples.

Results

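The genes described here are 33 nuclear genes for mitochondrial enzymes: 17 of the citric acid cycle with the entry of pyruvate, and 16 of fatty acid oxidation. They were listed by name and pathway out of 27071 features in the deposited count table, with earlier results of these data known. Every symbol matched 1 feature. The study asked which RNAs bind dAKAP1, a protein of the outer mitochondrial membrane that anchors protein kinase A. Purified KH and Tudor domains of dAKAP1 (KHT) were incubated with RNA extracted from MA-10, a mouse Leydig tumour cell line that makes steroids, and were recovered with an antibody against maltose-binding protein (MBP). There were 4 libraries from KHT, 5 from negative controls (NEG) and 4 from the untreated input RNA (IPT). NEG used empty anti-MBP beads, MBP or a bait named KHT(GDDG), and the sources used here do not tie a bait to a library. Since the RNA was already extracted when it met the bait, the design measured binding in a tube and not binding inside cells. Nothing in the labels says that libraries of a group came from separate cultures, so p-values measure only the spread between these libraries, which may be technical. In NEG that spread may also hold differences between control baits, which cannot be told apart from differences between libraries.

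The citric acid cycle burns the acetyl group of acetyl-CoA and hands its electrons to the respiratory chain. Pyruvate reaches it through the pyruvate dehydrogenase complex, which makes acetyl-CoA, or through pyruvate carboxylase, which makes oxaloacetate. Fatty acids enter the matrix as carnitine esters and are shortened in repeated rounds of dehydrogenation, hydration, a further oxidation and thiolysis, which yield acetyl-CoA for the same cycle. In Leydig cells the mitochondria also carry the first step of steroid synthesis, the cleavage of the cholesterol side chain, and the NADP-linked isocitrate dehydrogenase of the matrix is among the known sources of its reducing power. The messenger RNAs of all 33 genes come from nuclear DNA and are translated in the cytosol or at the mitochondrial surface.

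NEG 2 held 0 counts throughout and was left out, so 12 libraries, 4 in each group, were analysed. Their estimated counts summed to 1162178 to 1618998 in NEG, 1955446 to 3689792 in KHT and 2487679 to 3085423 in IPT. Most NEG counts lay in 9 dominant features, defined as those with at least 0.5% of the pooled NEG counts, and only 31318 to 49062 counts per NEG library lay outside them, where every library of the other groups had 929348 or more. NEG 5 stood apart, with 7047 features detected against 2173 to 4082 in the other NEG libraries. Of 11 Leydig cell markers, all had counts in each of the 3 groups. They summed to 0.165% to 0.258% of the counts outside the dominant features in KHT and 0.168% to 0.301% in IPT. NEG 1, 3 and 4 held 0%, 0.0356% and 0.0375%, while NEG 5 held 0.2%, inside the range of both other groups. Star, the cholesterol carrier of steroid-making cells, stood at 44.1 ± 19.2 CPM, counts scaled for library size by TMM (SD, n = 4), in IPT and 43.8 ± 18.2 in KHT. Epithelial markers summed to 0.00408% to 0.0992% in NEG, with Jup, Flg and Epcam at 0 there, against 0.00322% to 0.0149% in KHT with Flg at 0 and 0.003% to 0.00532% in IPT. Macrophage, endothelial and peritubular markers summed to 0.0143% to 0.112% in NEG, with Cd68, Ptprc and Myh11 at 0, and to at most 0.00966% in KHT and 0.012% in IPT. Pecam1, an endothelial adhesion gene, held 84 of the NEG counts of that list and stood at 112.9 CPM in NEG, 6.70 in KHT and 3.62 in IPT; Cdh5, the endothelial cadherin gene, did not follow it, at 8.48, 10.4 and 16.5 CPM. Sertoli cell markers were at 0 for 5 of 7 in NEG (Sox9, Amh, Fshr, Wt1 and Cldn11), for Wt1 and Cldn11 in KHT and for Fshr in IPT, and summed to at most 0.0347%, 0.021% and 0.0217%. The 3 germ cell markers in the table (Ddx4, Sycp3, Zbtb16) were all at 0 in NEG and summed to at most 0.00155% in KHT and 0.0016% in IPT, where Sycp3 and Zbtb16 were at 0. The part of these markers in the differences between NEG and the other groups was not tested. Akap1, the gene of the bait protein, stood at 39.7 CPM in KHT, 26.1 in NEG and 38.1 in IPT (KHT against NEG, log2 fold change 0.72, SE 0.60, edgeR adjusted p = 0.32).

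Hadha and Hadhb, the genes of the α and β subunits of the trifunctional protein, are shown first by sequence because their products form 1 enzyme and their genes start back to back. The 272 bases between the annotated starts lie at chr5:30154981-30155252 (RefSeq, GRCm38.p6), with Hadha reading away on the minus strand and Hadhb on the plus strand. The sequence is the plus strand and the capitals mark the GC box GGGCGG.
Hadha to Hadhb: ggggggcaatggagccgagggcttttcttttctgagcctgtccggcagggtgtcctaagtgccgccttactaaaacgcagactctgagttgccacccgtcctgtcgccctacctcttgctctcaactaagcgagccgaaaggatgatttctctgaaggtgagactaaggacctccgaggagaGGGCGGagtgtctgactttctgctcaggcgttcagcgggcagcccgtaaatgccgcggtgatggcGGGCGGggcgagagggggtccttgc
The GC content of this stretch was 60.3%, and both GC boxes lay on the plus strand, at positions 183 and 248 counted from the base after the Hadha start. Among the 30 members with a RefSeq promoter window (250 bases before to 50 after the start), 22 held GGGCGG on either strand, or 73.3%. The share was 38.2% over all 27025 genes with a window but 71.8% over the 7913 of them that passed the filter on low counts described below, so the members' share was near that of other detected genes. CCAAT stood in 14 of the 30 windows (46.7%, against 41.1% of all genes and 44.1% of the genes that passed the filter). The NRF1 motif stood in 1 of 30, that of Etfdh (3.3%, against 1.07% and 2.72%). TCAAGGTCA, the motif of the estrogen-related receptors, stood in 0 of 30 (against 0.466% and 0.316%). Each of these 4 motifs was searched on both strands on its own, so matches of different motifs may overlap, and a match is a description of letters only. A start on the other strand within 300 bases was annotated for 5 of the 30, or 16.7% (Hadha, Hadhb, Idh3g, Mdh2 and Ogdh), against 9.44% of all genes. This share was not computed over the genes that passed the filter, so the members were not set against other detected genes here.

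Every one of the 33 genes was read in each KHT and each IPT library, and few counts of any of them were found in NEG. The 33 genes together had 13 counts in NEG 1, 35 in NEG 3, 27 in NEG 4 and 188 in NEG 5, spread over 6, 15, 12 and 29 of the genes. KHT libraries held 4052 to 10363 counts of these genes and IPT libraries 7550 to 11754. As a share of the counts outside the dominant features, the 33 genes made up 0.0415%, 0.0891%, 0.0780% and 0.383% in NEG 1, 3, 4 and 5 (exact 95% binomial interval of NEG 5, 0.33% to 0.442%). The share was 0.386% to 0.493% in KHT and 0.421% to 0.525% in IPT. A library gives shares only, so less of an RNA and more of the others cannot be told apart in any comparison below. Intervals and floors on counts cover counting error only.

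**Figure D1:**
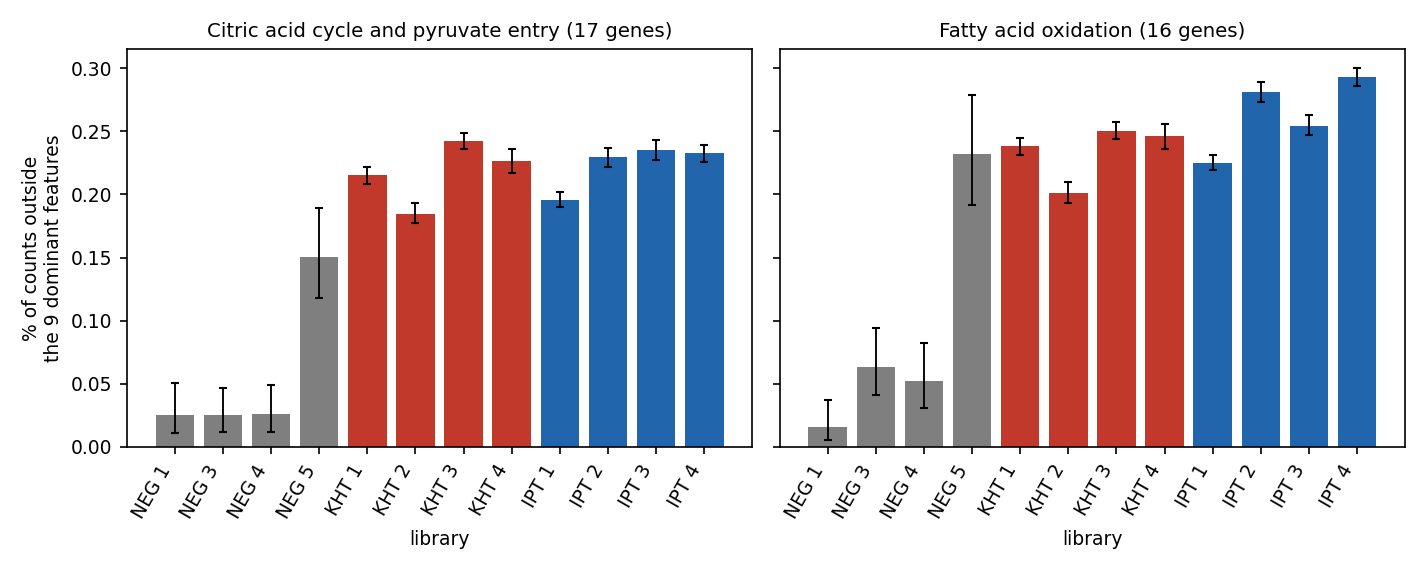
Share of the counts outside the 9 dominant features taken by the 17 citric acid cycle genes (left) and the 16 fatty acid oxidation genes (right) in each of 12 libraries, in percent. Bars are the shares and whiskers exact 95% binomial intervals; NEG is grey, KHT red and IPT blue. NEG 5 stands at 0.151% on the left and 0.232% on the right, while the other NEG libraries stay at or below 0.0636% in both panels.

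The citric acid cycle genes made up 0.0255%, 0.0254%, 0.0260% and 0.151% in NEG 1, 3, 4 and 5, 0.185% to 0.243% in KHT and 0.196% to 0.235% in IPT. NEG 5 thus lay below every KHT and IPT library for the cycle. The fatty acid oxidation genes made up 0.0160%, 0.0636%, 0.0520% and 0.232% in the same NEG libraries, 0.202% to 0.25% in KHT and 0.225% to 0.293% in IPT. For fatty acid oxidation, NEG 5 lay inside the range of both other groups. The bar plot of shares by library shows this difference between the pathways in 1 library, and it was not tested.

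KHT was set against NEG to see which of these messenger RNAs the bait recovered beyond what beads and control baits hold. Of the 33 genes, 17 were higher in KHT and 0 were lower, at an adjusted p under 0.05 in edgeR's quasi-likelihood test over 10714 genes with TMM scaling. By the same rule, 31% of all genes passed as higher and 2.72% as lower. No member could have passed the filter on low counts by its NEG counts, so the filter favoured calls of higher in KHT. Without that filter, 17 members were again higher (14.1% of 27071 features) and 0 lower (2.92%). At an unadjusted p under 0.05, 21 members were higher (45.1% of all genes) and 0 were lower (3.71% of all genes). DESeq2's Wald test called 21 higher and 0 lower. Of the 9645 genes to which it gave an adjusted p, it called 40.8% higher and 4.07% lower. The 17 were Pdha1, Pdhb, Pcx, Cs, Idh3a, Idh3b, Idh3g, Ogdh, Dlst, Dld, Suclg2 and Mdh2 of the cycle, and Cpt2, Hadhb, Echs1, Hadh and Etfdh of fatty acid oxidation. The median log2 fold change was 1.68 over the members and 1.73 over all genes tested. When each gene without NEG counts was entered at its lower bound, these medians were 1.67 and 0.94, since 2986 of the genes tested but only 2 members were at 0 in all NEG libraries. A bound falls with a gene's own counts, so 1.67 and 0.94 do not compare recovery. With the filter raised to a mean of at least 10 CPM, the medians were 1.32 over the members and 1.16 over all genes. Calls were made for 12 of 17 cycle genes (median 2.07) and 5 of 16 fatty acid oxidation genes (median 1.32), and the difference between the pathways was not tested.

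These counts moved with single libraries, and most with those of NEG. Without NEG 5, 27 members were higher (47.2% of all genes tested in that fit), 16 of them cycle genes and 11 fatty acid oxidation genes. The size of the fold changes rested on NEG 5 as well: for 10 members, Pdhb, Dlat, Cs, Dlst, Suclg1, Mdh2, Acadvl, Hadhb, Hadh and Etfdh, all NEG counts lay in NEG 5, so that without it only a lower bound against a floor of 3 counts over NEG 1, 3 and 4 can be given. Without NEG 1, 9 were higher (15%), without NEG 4, 10 (20.9%), and without NEG 3, 12 (21.6%). Leaving out any 1 KHT library gave 13 (25.8% to 26.7%). Leaving out 1 IPT library, a group outside this contrast, gave 13 to 15 (27.7% to 29.8%). With KHT and NEG fitted without IPT the count was 11 (24.8%), and with the filter on low counts raised to a mean CPM of 10 it was 10 of 28 (24.2%). TMM takes its scale from genes with counts in both libraries it compares, and 2986 of the 10714 genes tested were at 0 in all NEG libraries. On that scale the median log2 fold change of all genes was 1.73, so a fold change is not relative to a typical gene. Scaled by total counts, the median of all genes moved to 5.66 and that of the members from 1.68 to 5.6. There, 33 of 33 members were called higher, as were 97.3% of all genes. The fold changes given below hold relative to the TMM scale. Pdhb, Pcx, Cs, Idh3g, Dlst, Dld and Hadhb kept their call in each of 21 alternative fits, and Suclg2 and Cpt2 in each of the 20 that tested them. Etfdh kept its call in 20 of 21 fits, Hadh in 18, and Idh3a and Mdh2 in 17 each. The calls of Idh3b (6 of 21 fits), Pdha1 and Ogdh (8 of 21 each) and Echs1 (9 of 21) held least often.

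**Figure D2:**
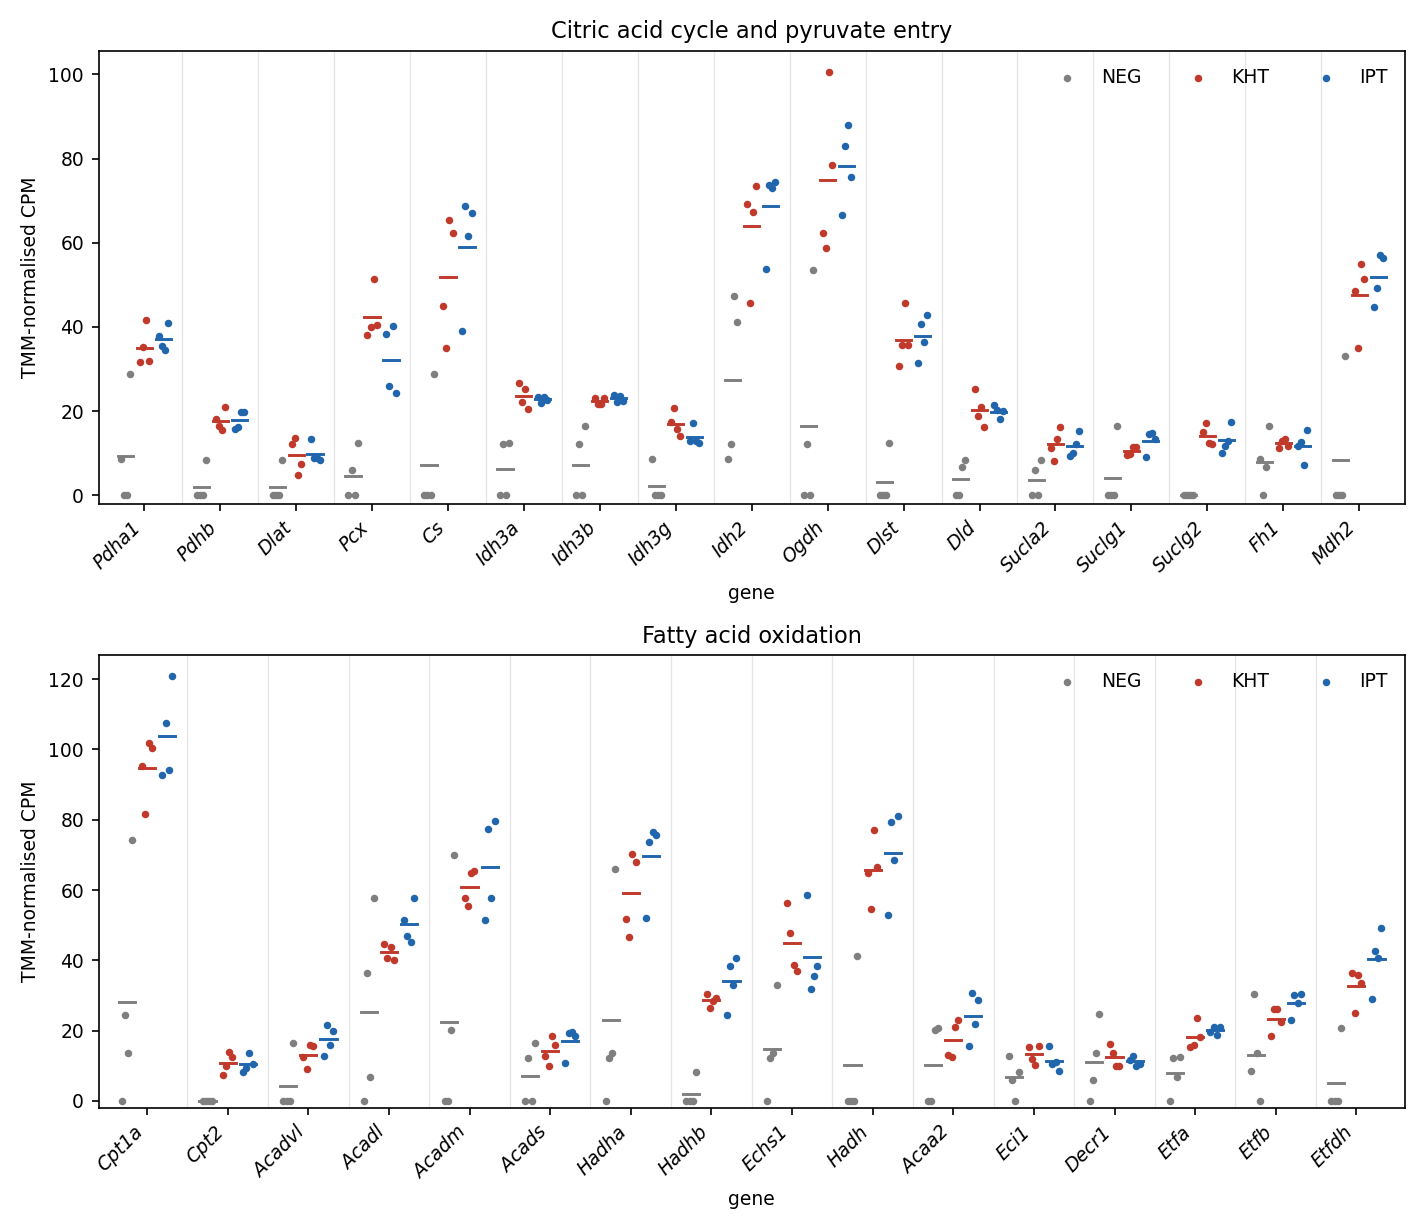
Level of each of the 33 genes in TMM-normalised CPM (linear axis) in the 4 NEG (grey), 4 KHT (red) and 4 IPT (blue) libraries, 1 point per library and a bar at the group mean. KHT and IPT points lie side by side for most genes, NEG points lie mostly at 0, and the highest NEG point, usually NEG 5, reaches the KHT points for genes such as Acadl, Acadm and Hadha.

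Pyruvate enters the cycle by way of 4 members. Pcx, pyruvate carboxylase, which makes oxaloacetate from pyruvate (chromosome 19, 4510472 to 4621752, GRCm38), stood at 0, 6.08, 0 and 12.4 CPM in NEG 1, 3, 4 and 5 and at 38.0, 40.1, 51.3 and 40.4 CPM in KHT 1 to 4. IPT 1 to 4 held 38.4, 25.9, 40.1 and 24.4 CPM. All KHT libraries thus exceeded all NEG libraries, and KHT overlapped IPT. The KHT level was 8.41-fold that of NEG (95% interval 3.18 to 22.2; edgeR adjusted p = 0.00474), a log2 fold change of 3.07, which became 4.58 without NEG 5. Pdhb, the β subunit of pyruvate dehydrogenase (chromosome 14, 8165991 to 8173303), had no count in NEG 1, 3 and 4 and 2 counts in NEG 5, against 18.0, 16.4, 15.5 and 21.1 CPM in KHT and 15.7, 16.2, 19.7 and 19.7 in IPT. Its ratio of KHT to NEG was 6.83 with a 95% counting interval of 1.88 to 56.6 (edgeR adjusted p = 0.0115). Pdha1, the α subunit that carries the regulatory phosphorylation sites, was also higher in KHT (log2 fold change 1.67, SE 0.61, edgeR adjusted p = 0.0402). Dlat, the acetyltransferase core of the same complex, was not called: 2 NEG counts, both in NEG 5, gave a ratio of 3.55 (0.971 to 29.5). Its KHT level of 4.79 CPM in KHT 3 and 13.6 in KHT 2 was the widest spread of any member.

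Cs, citrate synthase, which joins acetyl-CoA to oxaloacetate (chromosome 10, 128337727 to 128362482), stood at 0 in NEG 1, 3 and 4 and at 28.9 CPM (7 counts) in NEG 5. KHT 1 to 4 held 45, 35, 65.4 and 62.4 CPM and IPT 1 to 4 held 38.9, 68.8, 61.6 and 67.0. KHT lay above NEG throughout, but KHT 2 and IPT 1 were low within their groups. The KHT level was 6.10-fold that of NEG (2.02 to 18.4; edgeR adjusted p = 0.0164), and without NEG 5 it was at least 9.71-fold higher.

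The isocitrate dehydrogenases oxidise isocitrate, either with NAD (the Idh3 subunits) or with NADP (Idh2). Idh3g, the γ subunit (X chromosome, 73778963 to 73786897), had 2 counts in NEG 1 and none in NEG 3, 4 and 5. It stood at 17.4, 20.7, 15.6 and 14.0 CPM in KHT and 12.9, 17.1, 12.9 and 12.4 in IPT, and its ratio of KHT to NEG was 6.62 (1.82 to 54.9; edgeR adjusted p = 0.0136). Idh3a (adjusted p = 0.0247) and Idh3b (0.0492) were higher in KHT at log2 fold changes of 1.90 and 1.56 in edgeR's fit. Both were even across libraries: Idh3b ranged only 1.1-fold over the 8 KHT and IPT libraries, the least of the 33 genes. Idh2 had counts in every NEG library (2, 2, 7 and 10), reached 47.3 CPM in NEG 4 against 45.6 in KHT 2, and was not called (log2 fold change 1.25, SE 0.58, edgeR adjusted p = 0.0907).

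All 3 genes of the oxoglutarate dehydrogenase complex were higher in KHT than in NEG. Dlst, its succinyltransferase core (chromosome 12, 85110822 to 85134091), was at 0 in NEG 1, 3 and 4 and at 12.4 CPM (3 counts) in NEG 5. It held 30.7, 35.7, 45.6 and 35.6 CPM in KHT and 31.5, 40.7, 36.4 and 42.8 in IPT, with no overlap between NEG and either group, and without NEG 5 KHT was at least 6.86-fold higher. Dld, the dihydrolipoamide dehydrogenase that this complex shares with pyruvate dehydrogenase (chromosome 12, 31331562 to 31351471), had 1 count in NEG 4 and 2 in NEG 5. It stood at 25.3, 18.9, 20.9 and 16.3 CPM in KHT and 21.4, 20.2, 18.0 and 19.9 in IPT. Its ratio of KHT to NEG was 5.55 (1.89 to 27.0; edgeR adjusted p = 0.0132). Ogdh, the first enzyme of the complex, had 2 counts in NEG 3 and 13 in NEG 5 and was higher in KHT at an edgeR adjusted p of 0.0402 (log2 fold change 2.07, SE 0.75).

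Of the 5 genes for the later steps of the cycle, 2 were called. Suclg2, the GTP-forming β subunit of succinyl-CoA ligase (chromosome 6, 95473009 to 95718858), had no count in any NEG library. It held 15, 17, 12.4 and 12.3 CPM in KHT and 10.0, 11.8, 12.9 and 17.5 in IPT, which put KHT at least 3.68-fold above NEG with the summed NEG counts taken as a floor of 3 (edgeR adjusted p = 0.00492). Sucla2, the ATP-forming β subunit, and Suclg1, the α subunit that both share, were not called (edgeR adjusted p = 0.0815 and 0.24), but without NEG 5 both were (0.027 and 0.00374). Mdh2, the matrix malate dehydrogenase (chromosome 5, 135778649 to 135790386), was at 0 in NEG 1, 3 and 4 and at 33 CPM in NEG 5, just under the 35 of KHT 2. The other KHT libraries held 48.6, 55.0 and 51.4 CPM and IPT held 44.6, 49.2, 57.1 and 56.4. Mdh2 was higher in KHT than in NEG (4.88-fold, 1.71 to 14; edgeR adjusted p = 0.0232), and at least 8.91-fold higher without NEG 5. Without NEG 1, 3 or 4 in turn, Mdh2 was not called (edgeR adjusted p = 0.0644, 0.0634 and 0.061). Fh1, fumarase, had 2, 0, 1 and 4 NEG counts and was not called (log2 fold change 0.49, SE 0.59, edgeR adjusted p = 0.493).

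Carnitine carries long-chain acyl groups into the matrix, with Cpt1a at the outer membrane as the regulated step and Cpt2 at the inner membrane. Cpt1a (chromosome 19, 3322326 to 3385735) had the most NEG counts of the 33 genes, 24, of which 18 were in NEG 5. It stood at 0, 24.3, 13.5 and 74.2 CPM in NEG 1, 3, 4 and 5, at 95.2, 81.5, 102 and 100 CPM in KHT and at 92.7, 108, 94.2 and 121 CPM in IPT. Every KHT library exceeded every NEG library, yet the difference did not pass the threshold (3.27-fold, 1.15 to 9.30; edgeR adjusted p = 0.0696); without NEG 5 it did (log2 fold change 3.11, edgeR adjusted p = 0.00129). Cpt2 (chromosome 4, 107903982 to 107923589) had no count in any NEG library. It held 7.29, 9.90, 13.8 and 12.5 CPM in KHT and 8.28, 9.24, 13.5 and 10.4 in IPT. KHT was at least 2.87-fold above NEG against the floor of 3 counts (edgeR adjusted p = 0.00847).

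None of the 4 acyl-CoA dehydrogenases, which make the first double bond at different chain lengths, was called between KHT and NEG (edgeR adjusted p of 0.14 to 0.345). At an unadjusted p under 0.05 there were also 0 of these 4 in edgeR, and the NEG 5 level of each lay inside or above its KHT range. Acadm, the medium-chain enzyme (chromosome 3, 153922353 to 153944643), stood at 0, 0, 20.3 and 70.1 CPM in NEG 1, 3, 4 and 5. KHT held 57.6, 55.5, 64.7 and 65.4 CPM and IPT held 51.5, 77.3, 57.7 and 79.8, so NEG 5 lay above all KHT libraries. The long-chain enzyme Acadl likewise reached 57.7 CPM in NEG 5, above its KHT range of 40.1 to 44.8. Acadvl and Acads reached 16.5 CPM each in NEG 5, above the KHT range of 8.98 to 15.8 for Acadvl, the very-long-chain enzyme, and inside that of 9.90 to 18.4 for Acads, the short-chain enzyme. Without NEG 5, edgeR called Acadvl (adjusted p = 0.00501), Acadl (0.0279) and Acadm (0.00168), and did not call Acads (0.0699).

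The trifunctional protein, which hydrates, oxidises and cleaves long-chain acyl-CoA at the inner membrane, was split between its subunits in the test. Hadhb, the thiolase subunit, started at the right end of the sequence shown above (chromosome 5, 30155253 to 30184593). It had no count in NEG 1, 3 and 4 and 2 counts in NEG 5, against 30.5, 26.5, 28.5 and 29.3 CPM in KHT and 24.5, 38.4, 33.1 and 40.7 in IPT, and it had the smallest adjusted p of the 33 genes (edgeR, 0.00473). Hadha, the hydratase and dehydrogenase subunit (chromosome 5, 30119423 to 30154980), stood at 0, 12.2, 13.5 and 65.9 CPM in NEG 1, 3, 4 and 5, at 51.7, 46.8, 70.2 and 67.9 CPM in KHT and at 52.0, 73.8, 76.6 and 75.8 CPM in IPT. NEG 5 overlapped KHT for Hadha, which was not called (2.45-fold, 0.928 to 6.47; edgeR adjusted p = 0.127). Without NEG 5 Hadha was called as well (log2 fold change 3.04, edgeR adjusted p = 0.00147). Whether the subunits differed in recovery was not tested.

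**Figure D3:**
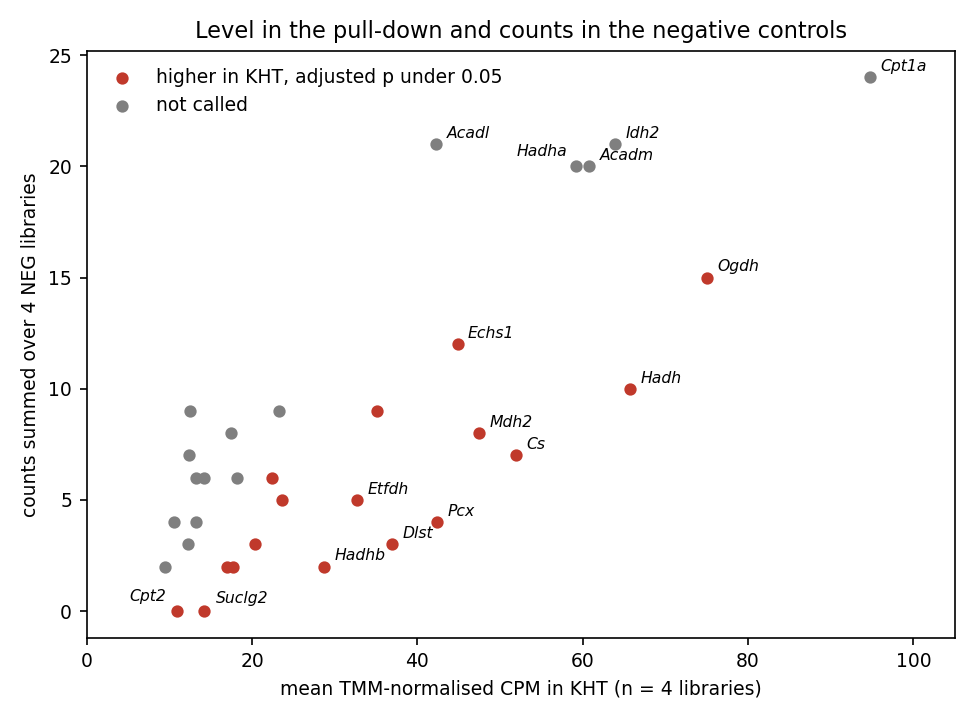
Counts summed over the 4 NEG libraries (vertical axis) against mean TMM-normalised CPM in KHT (horizontal axis, n = 4) for the 33 genes, red where KHT was higher than NEG at an edgeR adjusted p under 0.05 and grey where it was not. Cpt2 and Suclg2 lie at 0 NEG counts, and Cpt1a, Idh2, Acadl, Acadm and Hadha, with 20 to 24 NEG counts, are grey although their KHT means run from 42.3 to 94.7 CPM.

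Shorter acyl chains are handled in the matrix by single enzymes. Hadh, the short-chain hydroxyacyl-CoA dehydrogenase (chromosome 3, 131233419 to 131272101), was at 0 in NEG 1, 3 and 4 and at 41.2 CPM (10 counts) in NEG 5. KHT held 64.9, 54.6, 77.2 and 66.4 CPM and IPT held 52.8, 79.3, 68.7 and 81.0, all above NEG, and the KHT level was 5.52-fold that of NEG (1.79 to 17; edgeR adjusted p = 0.0229), or at least 12.3-fold without NEG 5. Without NEG 1, 3 or 4 in turn, Hadh was not called (edgeR adjusted p = 0.0539, 0.0614 and 0.0579). Echs1, the short-chain hydratase, was higher in KHT with an edgeR adjusted p of 0.0479 (log2 fold change 1.57, SE 0.60). Acaa2, the matrix thiolase, was not called (log2 fold change 0.78, SE 0.68, edgeR adjusted p = 0.345).

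Unsaturated fatty acids need Eci1, an enoyl-CoA isomerase, and Decr1, a dienoyl-CoA reductase, and neither was called (edgeR adjusted p = 0.263 and 0.857). Decr1 (chromosome 4, 15917240 to 15945377) stood at 0, 6.08, 13.5 and 24.7 CPM in NEG 1, 3, 4 and 5, at 16.3, 13.6, 9.91 and 10.0 in KHT and at 11.7, 12.7, 10.1 and 10.4 in IPT. Its KHT and NEG libraries overlapped, and its log2 fold change of 0.14 (SE 0.58) was the smallest of the 33.

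Electrons from the acyl-CoA dehydrogenases pass to the electron transfer flavoprotein (Etfa and Etfb) and from it to ubiquinone through Etfdh. Etfdh (chromosome 3, 79603788 to 79628767) was at 0 in NEG 1, 3 and 4 and at 20.6 CPM in NEG 5, against 36.3, 25.1, 35.8 and 33.6 CPM in KHT and 29.0, 42.7, 40.6 and 49.2 in IPT. NEG lay below both other groups throughout, and KHT was 5.26-fold above NEG (1.87 to 14.8; edgeR adjusted p = 0.0179) and at least 6.13-fold without NEG 5. Without NEG 1, Etfdh was not called (edgeR adjusted p = 0.0568). Etfa and Etfb were not called with all libraries (edgeR adjusted p = 0.0895 and 0.168). Etfb had its NEG counts in NEG 1, 3 and 4 (2, 5 and 2) and none in NEG 5.

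Counted by overlap alone, every KHT library exceeded every NEG library for 19 of the 33 genes, where 45.8% of all genes tested did so, and 14 overlapped; 0 lay wholly lower, against 1.02% of all genes. The 19 comprised 12 cycle and 7 fatty acid oxidation genes.

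KHT against IPT asks whether the bait took these RNAs out of proportion to the RNA that went in. None of the 33 genes was called higher or lower, where edgeR called 0.00933% of all genes higher (1 gene) and 0% lower. There were also 0 members at an unadjusted p under 0.05 (0.952% of all genes higher and 0.681% lower). DESeq2 likewise called 0 members, and of 10684 genes it called 0.0374% higher and 0.0281% lower. The largest differences were Pcx at a log2 fold change of 0.40 (SE 0.36) and Acaa2 at -0.47 (SE 0.36). The median was -0.08 over the members and 0.01 over all genes, with 11 members positive and 22 negative. Scaled by total counts, the medians were -0.34 and -0.24.

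The cycle genes had a median of -0.04, with 7 of 17 positive, and the fatty acid oxidation genes had -0.19, with 4 of 16 positive; the difference was not tested. All 4 acyl-CoA dehydrogenases (-0.40 to -0.13), both trifunctional subunits (-0.25 and -0.23) and the 3 electron transfer genes (-0.30 to -0.14) had values below 0, none of which passed the test. For 32 genes the libraries of KHT and IPT overlapped. Acadl was the exception, singled out after its values were seen: its KHT libraries (44.8, 40.5, 43.8 and 40.1 CPM) all lay below its IPT libraries (51.6, 47.1, 45.2 and 57.7 CPM). Over all genes tested, 1.17% lay wholly lower in KHT by this count and 0.84% wholly higher. The Acadl difference did not pass the test (log2 fold change -0.25, SE 0.49, edgeR adjusted p = 1).

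How large a difference these libraries leave room for depended on the fit. In the fit of all 12 libraries, the 95% interval of the difference between KHT and IPT lay within 2-fold either way for 19 of 33 genes, and the median SE was 0.33. In a fit of KHT and IPT alone, which leaves out the variable NEG libraries, the median SE was 0.18 and the interval lay within 2-fold for 32 of 33. The exception was Acaa2, at 0.722-fold (0.480 to 1.09). Pcx had the smallest unadjusted p in that fit, 0.0557 in edgeR's test over 10908 genes, at 1.33-fold (0.992 to 1.77). Cs lay at 0.882-fold (0.615 to 1.26), Dlst at 0.978-fold (0.766 to 1.25), Cpt1a at 0.915-fold (0.743 to 1.13), Hadha at 0.853-fold (0.647 to 1.12) and Hadhb at 0.842-fold (0.649 to 1.09). No member was called there either, with adjusted p-values of at least 0.997.

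**Figure D4:**
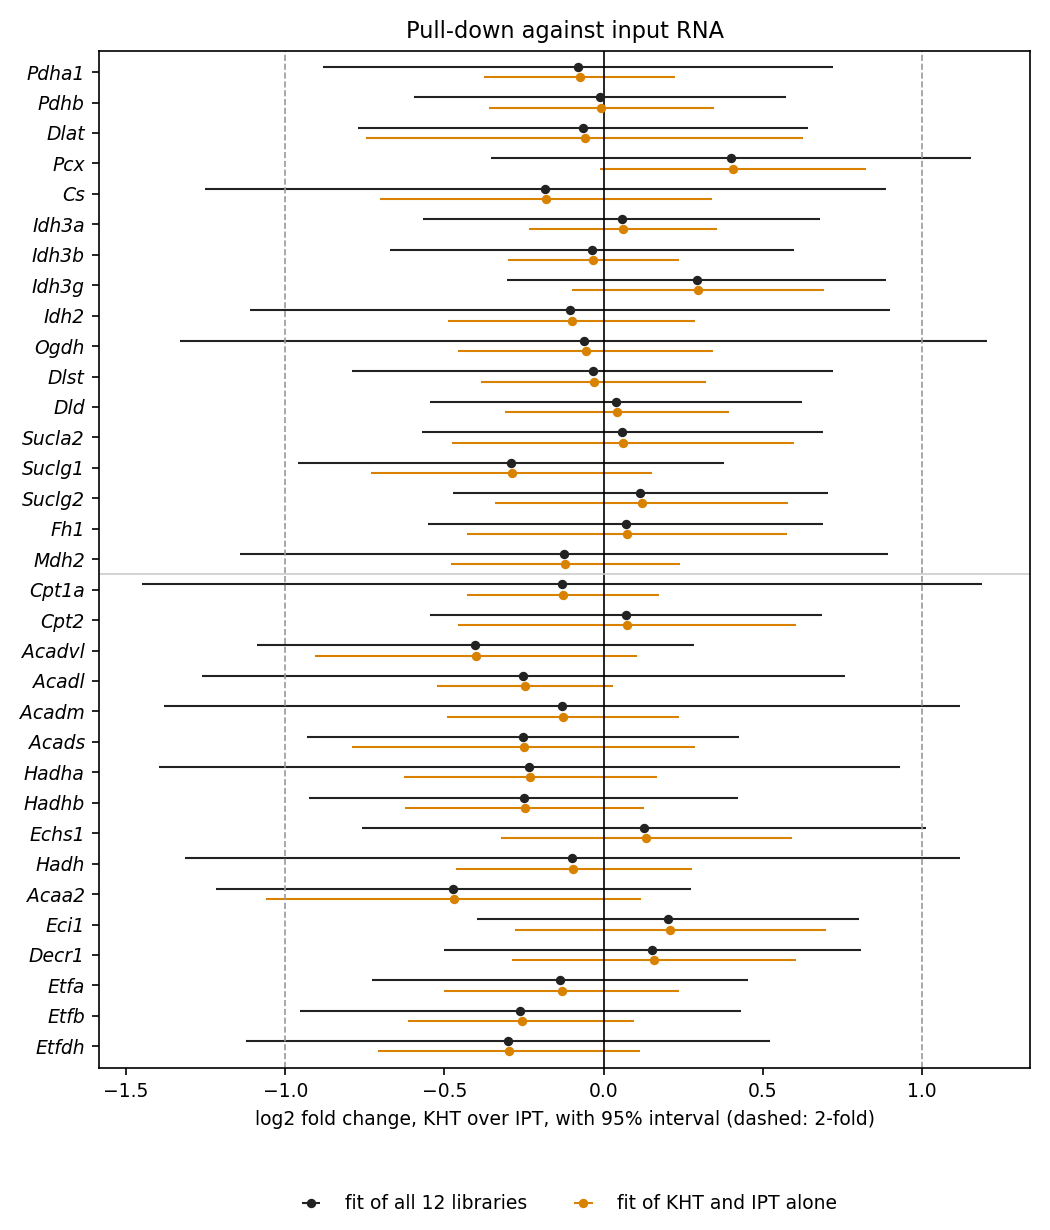
Log2 fold change of KHT over IPT with its 95% interval for each of the 33 genes, in the edgeR fit of all 12 libraries (black) and in the fit of KHT and IPT alone (orange); dashed lines mark 2-fold either way. All intervals include 0, and in the orange fit that of Acaa2 alone reaches past the lower dashed line.

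The comparison of NEG with IPT shows what the beads and control baits held of the input. It shares NEG with the first comparison and IPT with the second, so its values are not independent of them. NEG was lower than IPT for 16 of the 33 genes and higher for 0, at an edgeR adjusted p under 0.05, where 32.5% of all genes were lower and 3.64% higher. The calls covered 12 of 17 cycle genes and 4 of 16 fatty acid oxidation genes, with medians of -2.13 and -1.46 against -1.74 over all genes. The smallest adjusted p-values by edgeR were those of Hadhb (0.00296), Dlst (0.00429), Suclg2 (0.00497), Cpt2 (0.00850), Pcx (0.00862), Etfdh (0.00922), Pdhb (0.0105) and Cs (0.0111). IPT stood at least 3.47-fold above NEG for Suclg2 and at least 2.68-fold for Cpt2 against the floor of 3 NEG counts, and the ratio of IPT to NEG was 13.4 for Hadhb (3.70 to 111) and 9.93 for Dlst (3.39 to 48.2). Every NEG library lay below every IPT library for 21 members, against 47.1% of all genes, and none lay wholly above (1.74% of all genes). At an unadjusted p under 0.05, 25 members were lower (45.5% of all genes) and 0 higher (4.23%) in edgeR. Decr1 had the value nearest 0, at 0.02 (SE 0.58). Without NEG 5, 29 members were lower (47.4% of all genes), without NEG 1 or NEG 4, 12 each (15.6% and 21.5%), and without NEG 3, 13 (22.3%).

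Libraries of the same group also differed among themselves. Over the 8 KHT and IPT libraries the highest level of a gene was 1.1 times the lowest for Idh3b and 2.84 times for Dlat. The coefficient of variation had a median of 16.9% over the 33 genes in KHT (3.65% for Idh3b to 42.8% for Dlat) and 18.4% in IPT (3.16% for Idh3a to 29.9% for Fh1). Over all genes at least as abundant in the group as its lowest member (5584 in KHT, 5351 in IPT), the medians were 18.9% and 16.1%. These coefficients hold counting error and library differences together.

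The members' lowest levels gathered in 2 libraries. KHT 2 had the lowest KHT level for 15 of the 33 genes and IPT 1 the lowest IPT level for 20, and 14 genes were lowest in both: Cs, Idh2, Ogdh, Sucla2, Mdh2, Cpt1a, Acadvl, Acadm, Acads, Hadha, Hadhb, Hadh, Acaa2 and Etfdh. KHT 3 was highest for 15 and IPT 4 for 14. Of all 10714 genes tested, 28.2% were lowest in KHT 2, 31.2% in IPT 1 and 13.8% in both, and 23.8% were highest in KHT 3 and 20.7% in IPT 4. Over the 5487 tested genes at least as abundant as the lowest member, the shares were 30.2%, 35.8%, 17.3%, 26.8% and 20.9% in the same order. The members' shares of 45.5%, 60.6%, 42.4%, 45.5% and 42.4% were larger than both, but the difference was not tested. KHT 2 and IPT 1 also deviated from their groups together over 4652 genes (correlation 0.64). Echs1 ran the other way, singled out after its values were seen: it stood at 58.6 CPM in IPT 1, 56.2 in KHT 1 and 47.7 in KHT 2 and at 31.9 to 38.8 CPM in the other 5 libraries. Dlat was also high in IPT 1 (13.3 CPM) and KHT 2 (13.6 CPM). Genes outside the list moved with the same libraries. The Leydig markers summed to 0.171% and 0.165% of the counts outside the dominant features in KHT 1 and 2 against 0.25% and 0.258% in KHT 3 and 4, and to 0.168% in IPT 1 against 0.246% to 0.301% in the other IPT libraries. Fdx1, the ferredoxin that passes electrons to the side-chain cleavage enzyme, stood at 29.7, 24.6, 84.9 and 80.0 CPM in KHT 1 to 4 and at 28.4, 76.1, 83.7 and 110.1 in IPT 1 to 4. Pck2, the mitochondrial phosphoenolpyruvate carboxykinase, ran the other way, at 46, 44.5, 7.52 and 6.27 CPM in KHT and 43.5, 5.69, 10.2 and 6.54 in IPT, as did Acot2, an acyl-CoA thioesterase, at 70.6 and 54.4 CPM in KHT 1 and 2, 68.9 in IPT 1 and at most 9.92 in the other 5. By these genes, singled out after their values were seen, 2 KHT libraries and 1 IPT library stood apart, and their part in the values between KHT and IPT was not tested. Leaving out KHT 2 or IPT 1 in turn changed no call between KHT and IPT for any member. No member was near a call with all 12 libraries (smallest unadjusted p of 0.203 in edgeR), so unchanged calls cannot show the part of KHT 2 and IPT 1.

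**Figure D5:**
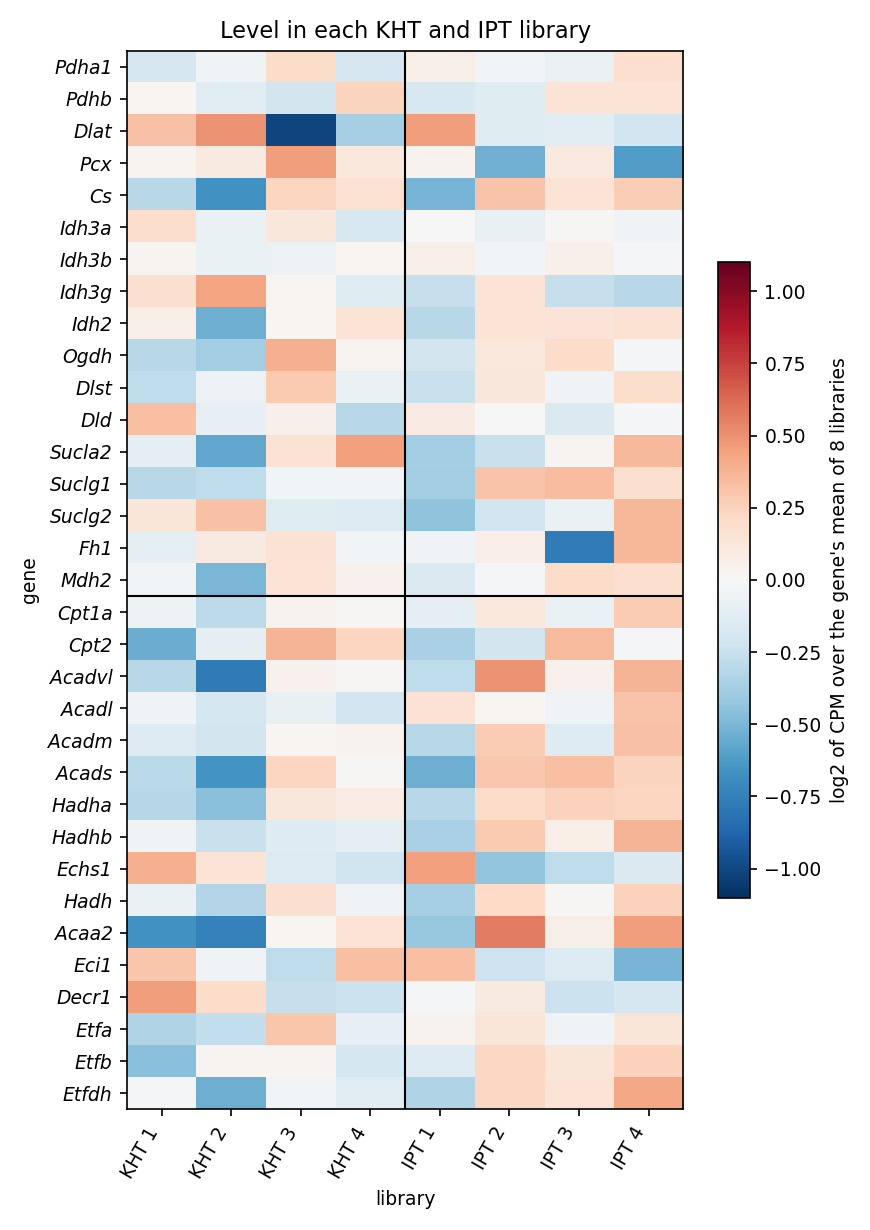
Log2 of each gene's TMM-normalised CPM over its mean of the 8 KHT and IPT libraries, for the 17 cycle genes (above the line) and the 16 fatty acid oxidation genes (below it); red is above the mean and blue below, on a scale from -1.1 to 1.1. The columns of KHT 2 and IPT 1 are blue for most genes from Cs to Etfdh, with Dlat and Echs1 red in both.

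Genes around the 2 pathways were counted in 7 lists with no gene of the 33, beside the 31% of all genes that were higher in KHT than in NEG. Beside the members in the cycle, 2 of 10 further genes, mostly of succinate dehydrogenase and its assembly, were higher in KHT than in NEG: Sdha, the flavoprotein of complex II (KHT 48.1 ± 2.24 CPM, NEG 10.7 ± 8.66, SD, n = 4 each; edgeR adjusted p = 0.0122), and Sdhb, its iron-sulphur subunit (41.6 ± 3.13 and 14.8 ± 9.91; edgeR adjusted p = 0.0381). Of 11 tested genes for pyruvate supply and the control of pyruvate dehydrogenase, 8 were higher. Pdp2, Pdpr and Pdp1, which form and regulate the phosphatases that switch the complex on, were at 0 in all NEG libraries and at least 4.56-fold, 3.49-fold and 2.68-fold higher in KHT against the floor of 3 counts. Of 12 genes for reactions that fill or draw on the cycle, 4 were higher, among them the cytosolic aconitase Aco1, the aspartate aminotransferase Got2 and the citrate lyase Acly (edgeR adjusted p = 0.00757, 0.0176 and 0.0258).

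For fatty acids, 10 of 15 tested genes of carnitine transport and acyl-CoA formation were higher in KHT than in NEG. Slc25a20, which carries acylcarnitine across the inner membrane between Cpt1a and Cpt2, had 2 NEG counts against 510 in KHT (ratio 8.16, 2.25 to 67.5; edgeR adjusted p = 0.00867). Acsl1, a long-chain acyl-CoA synthetase, was at 0 in NEG (at least 2.32-fold higher), and Acsl4, which favours arachidonic acid, was also higher (NEG 8.64 ± 14.7 CPM, KHT 65.0 ± 26.1, SD, n = 4 each; edgeR adjusted p = 0.0104). Of 12 other dehydrogenases and oxidation genes 7 were higher, led by Ivd (at least 4.31-fold), Acad9 (ratio 6.33, 2.16 to 30.8) and Acad8 (at least 2.75-fold). In peroxisomes, where very long chains are shortened, 4 of 9 genes were higher, among them Hsd17b4 and Acaa1a (edgeR adjusted p = 0.0102 and 0.0152). Of 8 regulators of these pathways 1 was higher, the deacetylase gene Sirt3, at 0 in NEG and at least 1.13-fold higher. No gene of these 7 lists was called lower in KHT than in NEG, or called in either direction between KHT and IPT, by edgeR. The counts lower in NEG than in IPT were 2 of 10, 7 of 11, 3 of 12, 10 of 15, 7 of 12, 4 of 9 and 1 of 8 in the order given, where 32.5% of all genes were lower.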

How the data were processed

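The deposited table holds estimated counts (expected counts) per gene from the authors, unscaled, for 13 libraries of MA-10 RNA; the submitters' processing notes name kallisto, DESeq2, GRCm38 and mm10, and no version or role. The labels name both polyA RNA and depletion of ribosomal RNA, and the description of the KHT samples names negative controls, while their titles and treatment name KHT; groups follow the titles. All values were whole numbers, so rounding changed none. Symbols matched 27004 of 27071 identifiers, and coordinates and promoter sequences came from RefSeq annotation of GRCm38.p6.

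From these counts, edgeR's quasi-likelihood model (version 4.0.16, R 4.3.3; robust glmQLFit, two-sided glmQLFTest) was fitted to 12 libraries in 3 groups. Libraries were scaled by TMM, and filterByExpr left 10714 genes, all 33 members among them, which passed by their KHT and IPT counts. Adjusted p-values are Benjamini-Hochberg over all genes kept, with a threshold of 0.05. NEG 2, at 0 throughout, was left out. SEs and 95% intervals of fold changes come from the same fit. Genes with 1 to 3 NEG counts are given as ratios with exact binomial intervals and genes at 0 against a floor of 3 counts over the group. On counts simulated from these libraries, 100 of 10714 genes were raised 2-fold and 100 raised 4-fold in the first-named group of each comparison. Each gene started from its mean level over all 12 libraries. The fit called 3% and 39% for KHT against NEG, 16% and 76% for KHT against IPT and 2% and 32% for NEG against IPT. Lower levels in NEG were not simulated, so 2% and 32% do not measure how often such falls would be called. DESeq2 1.42.0 was one of the alternatives.

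The members, the 7 lists of related genes and the 5 marker lists were chosen with earlier results of these data known. Values by library are given for up to 8 called members per comparison and direction by smallest p, for Cs, Pcx, Dlst, Cpt1a, Hadha and Hadhb, and for the most abundant member of a role with none of these. Related lists name up to 3 called genes each, by smallest p; Akap1 and Star were also named. Some genes of these lists are not reported here by name. Reads of near-identical copies may be split. Transcript lengths were not used here, so levels are not compared between genes.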

Additional observations from a re-analysis of the deposited data

Results flagged for a closer look

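In 97 groups of 4 libraries (33 genes in 3 groups, without 2 that were 0 throughout), 1 library stood far from the other 3 in 16. Chance flags about 1 in 20 groups of continuous values, but in 11 of the 16 the other 3 libraries were at 0, where any count stands apart and that rate does not hold. In NEG 5, 10 genes were above 0 while the other NEG libraries were at 0: Pdhb, Dlat and Hadhb at 8.24 CPM each, Dlst at 12.4, Suclg1 and Acadvl at 16.5 each, Etfdh at 20.6, Cs at 28.9, Mdh2 at 33 and Hadh at 41.2 CPM. These levels rest on 2 to 10 counts each. In NEG 1, Idh3g was at 8.57 CPM, from 2 counts, with the other NEG libraries at 0.

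IPT 1 was far from the other input libraries for 4 genes. Hadha stood there at 52.0 CPM (next lowest 73.8), Idh2 at 53.6 CPM (next lowest 73.0) and Acads at 10.8 CPM (next lowest 18.5), while Dlat stood at 13.3 CPM (next highest 8.87). In IPT 2, Idh3g stood at 17.1 CPM (next highest 12.9).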

How the results depend on the processing

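Members higher in KHT than in NEG numbered 17. They became 33 with total counts (97.3% of all genes), 10 of 28 tested at a mean of at least 10 CPM (24.2%) and 11 with the 2 groups alone (24.8%). Suclg2 and Cpt2 were not tested at 10 CPM, so part of each fall there is lost tests and not lost calls. Cycle genes went from 12 to 7 at 10 CPM and 7 with the 2 groups alone. Fatty acid oxidation genes went from 5 to 16 with total counts, 8 with DESeq2's Wald test (40.8% of 9645 genes with an adjusted p) and 3 at 10 CPM. Members lower in NEG than in IPT went from 16 to 33 with total counts (97.3% of all genes), 26 with DESeq2's test (42.3% of 9853 such genes) and 10 of 28 at 10 CPM (25.5%). Cycle genes went from 12 to 7 at 10 CPM and with the 2 groups alone. Fatty acid oxidation genes went from 4 to 16 with total counts, 9 with DESeq2's size factors (37% of all genes) and 13 with its test. Leaving out 1 library in turn gave 9 to 27 members for KHT against NEG (cycle 7 to 16, fatty acid oxidation 2 to 11) and 12 to 29 for NEG against IPT (cycle 8 to 16, fatty acid oxidation 4 to 13). The cause of these changes was not tested. Decr1 reversed between NEG and IPT, from 0.02 to -4.23, with total counts, which move the median of all genes from -1.74 to -5.90. Between KHT and IPT each setting gave 0 called members, and at most 0.159% of the genes tested in either direction. Halving all values, chosen after seeing the data because values of 2 outnumber 1, as counting both mates would give, moved none of these counts by over 1.5 times.

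With the replicate number as a block, 25 members were higher in KHT than in NEG (9 of fatty acid oxidation), against 47.1% of all genes. In the same fit 26 were lower in NEG than in IPT (11 of fatty acid oxidation), against 46.9%. The shares were close to those of the fit without NEG 5 (47.2% and 47.4%). Number 5 belonged to NEG 5 alone, so this block in effect took that library out. The numbers did not pair the libraries: over 4652 genes, same-numbered KHT and IPT libraries correlated at -0.09, -0.55, 0.13 and 0.01 in their deviations from the group means, and no KHT library correlated best with the IPT library of its own number. The highest values were 0.64 for KHT 2 with IPT 1, 0.51 for KHT 4 with IPT 3, 0.41 for KHT 3 with IPT 4 and 0.38 for KHT 1 with IPT 2.

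Depth limits the NEG comparisons: a member had at most 24 counts over the 4 NEG libraries. If values count both mates, floors and counting intervals are too narrow.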
